A study of Mus musculus with 16 samples.

Results

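The 10 genes described here encode the classical secreted antagonists of Wnt signalling: Sfrp1, Sfrp2, Sfrp4, Sfrp5, Frzb, Dkk1, Dkk2, Dkk3, Wif1 and Sostdc1. They were taken from the table of gene expression by symbol, and each symbol matched 1 of its 49315 genes. Wnt ligands are lipid-modified glycoproteins that bind a Frizzled receptor together with the co-receptor LRP5 or LRP6, which stabilises beta-catenin and switches on TCF/LEF target genes. Secreted antagonists act outside the cell: the Frizzled-related proteins and WIF1 bind the ligand, whereas DKK1, DKK2 and SOSTDC1 act on the LRP co-receptor. In the intervertebral disc and in cartilage several of them are known as products of matrix-forming cells, and excess beta-catenin signalling is known to harm disc cells.

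Tail discs of 16 mice had been studied by bulk RNA sequencing, with 4 discs of a mouse (Co3/4 to Co6/7) pooled into 1 library. The 4 groups were wild-type mice with intact discs (n = 3), wild-type mice with injured discs (n = 4), Adam8EQ mutants with intact discs (n = 4) and Adam8EQ mutants with injured discs (n = 5). Adam8 encodes a membrane-anchored metalloprotease. The labels describe the Adam8EQ allele no further, the series title sets it against DBA, an inbred strain, and the kind of injury, the age and the sex are not given in the sources used here. Because wild-type libraries carry names beginning with D and mutant libraries names beginning with A8 or M, the naming of libraries and the genotype cannot be told apart.

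The deposited unit was TPM, which corrects for gene length and library size, so that levels of different genes can be set side by side. The reads implied by these values were 10195549 to 24832667 per library. Changes are differences of mean log2(TPM + 1) with the standard error of the fit (SE); for genes near 0 this scale makes a change look smaller than it is. They were tested with limma over the 24188 genes that reached 1 TPM in at least 3 libraries, with Benjamini-Hochberg adjustment over all of them and a threshold of 0.05. As a check of the tissue, marker genes were summed. Cartilage markers summed to 24368 TPM or more in every intact library and markers of notochordal cells to 5237 TPM or more. The most abundant gene of the notochordal list was Car3, with means of 9435 TPM in intact wild-type mice and 7560 TPM in intact mutants. Foxa2 averaged 2.87 and 3.96 TPM in these groups. Shh and Noto, 2 of the 8 on that list, stayed under 1 TPM in all libraries. Injured wild-type mice were unlike each other. On the first principal component of the libraries, mice 1 and 2 lay at -42.6 and -23.2, toward the intact libraries (-66.9 to -40.2), and mice 3 and 4 at 84.9 and 41.8, among the injured mutants (39.6 to 97.8).

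Intact discs expressed 5 of the 10 antagonists strongly. In intact wild-type discs Frzb ranked 80 among the 49315 genes by mean TPM, Wif1 ranked 149, Sfrp5 ranked 234, Sostdc1 ranked 284 and Dkk3 ranked 918. Sfrp1, Sfrp2, Sfrp4, Dkk1 and Dkk2 lay at ranks 20193 to 28220, with means of at most 1.47 TPM. In injured Adam8EQ discs all 5 abundant antagonists fell and Sfrp1 and Sfrp2 rose. The means of the 5 abundant members ranged from 128 TPM (Dkk3) to 884 TPM (Frzb) in intact mutants and from 35.3 TPM (Dkk3) to 203 TPM (Wif1) in injured mutants.

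Promoter sequence is shown for the member with the largest change, Sfrp5, for another abundant member, Wif1, and for Sfrp2, which moved the opposite way. The sequences are from RefSeq's promoter table on GRCm38.p6, which matched 6 of the 10 members, and the bases shown precede the start of every annotated transcript of the gene. They are printed 5′ to 3′ on the gene's own strand. Capitals mark matches to GGGNNNNNCC, a loose form of the NF-kappaB motif, on either strand. In Wif1 they also mark a match to the TATA-box letters TATAAA on the opposite strand.
Sfrp5, chr19:42202253-42202502, minus strand: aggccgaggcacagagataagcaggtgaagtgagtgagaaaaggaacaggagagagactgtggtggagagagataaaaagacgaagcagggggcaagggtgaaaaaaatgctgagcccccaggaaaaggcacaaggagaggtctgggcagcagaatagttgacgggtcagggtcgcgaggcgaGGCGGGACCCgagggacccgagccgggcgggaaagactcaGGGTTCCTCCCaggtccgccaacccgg
Wif1, chr10:121033754-121033959, plus strand: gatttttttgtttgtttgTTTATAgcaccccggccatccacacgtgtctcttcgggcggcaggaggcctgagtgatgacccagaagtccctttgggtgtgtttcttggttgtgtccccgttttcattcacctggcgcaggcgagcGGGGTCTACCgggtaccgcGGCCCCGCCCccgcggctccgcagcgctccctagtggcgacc
Sfrp2, chr3:83766071-83766320, plus strand: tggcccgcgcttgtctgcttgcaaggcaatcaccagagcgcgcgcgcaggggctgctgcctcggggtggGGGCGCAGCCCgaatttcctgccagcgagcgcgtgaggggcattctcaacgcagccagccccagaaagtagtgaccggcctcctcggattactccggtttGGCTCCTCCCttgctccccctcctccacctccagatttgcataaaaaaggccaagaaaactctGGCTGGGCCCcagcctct

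These windows are rich in CpG. The Sfrp5 window holds 13 CpG in 250 bases, the Sfrp2 window 16 in 250 and the Wif1 window 17 in 206, against a median of 6 over the 32851 promoter windows of the table cut to 250 bases and 4 over those cut to 206. GGGNNNNNCC matched 3 times in Sfrp5, 4 times in Sfrp2 and 2 times in Wif1, counting overlapping matches, and it occurs in 45.8% of all 250-base windows and 38.4% of all 206-base windows. TATAAA matched once, in Wif1, on the opposite strand and 188 bases before the start, and occurs in 9.38% of the 206-base windows. The TCF/LEF letters CTTTGA, the SOX letters ACAATG and the AP-1 letters TGANTCA were in none of the 3 windows on either strand. Over all 250-base windows they occur in 13.8%, 10.7% and 6.75%. The NF-kappaB letters were thus found both in members that fell and in one that rose.

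Sfrp5 (ENSMUSG00000018822, GRCm38 chromosome 19, 42197971 to 42202252, minus strand, protein coding) encodes a secreted Frizzled-related protein with a Wnt-binding cysteine-rich domain. Intact wild-type mice had 450, 396 and 306 TPM and intact mutants 436, 364, 302 and 295 TPM. Injured wild-type mice had 232, 255, 88.3 and 111 TPM, and injured mutants had 9.81, 134, 6.28, 46.2 and 17.7 TPM. Every injured library of either genotype lay below every intact one. In mutants Sfrp5 fell by 3.80 ± 0.72 on the log2 scale (SE; adjusted p = 0.00122). The mean was 349 ± 65.8 TPM in the 4 intact mutants and 42.8 ± 53.3 TPM in the 5 injured ones (± SD). No other of the 24188 genes tested had a lower change in that comparison. In the wild type the change was -1.28 ± 0.81 (SE; adjusted p = 0.374), with means of 384 ± 72.8 and 172 ± 84.3 TPM (± SD over 3 and 4 mice), and it did not pass the threshold although the groups did not overlap.

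Frzb (ENSMUSG00000027004, chromosome 2, 80411970 to 80447625, minus strand) encodes secreted Frizzled-related protein 3, a cartilage product. It was the most abundant member in both intact groups, with 834, 771 and 1042 TPM in the wild type and 829, 915, 873 and 920 TPM in mutants. After injury the wild-type mice had 824, 722, 194 and 738 TPM and the mutants 120, 253, 99.0, 243 and 224 TPM. All 5 injured mutants lay below all 4 intact ones, whereas in the wild type only mouse 3 lay far from the intact values. Frzb fell by 2.33 ± 0.42 in mutants (SE; adjusted p = 0.00102). The wild-type change was -0.69 ± 0.47 (SE; adjusted p = 0.413).

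Sfrp2 (ENSMUSG00000027996, chromosome 3, 83766321 to 83774316, plus strand) encodes a Frizzled-related protein known from fibroblasts and healing tissue. It overlaps the antisense gene Gm26771, and because the use of strand in counting is not given, reads of the pair cannot be told apart. Intact wild-type mice had 1.89, 2.34 and 0.180 TPM and intact mutants 0.376, 0.146, 2.88 and 0.576 TPM. Injured wild-type mice had 1.78, 5.16, 31.5 and 11.2 TPM and injured mutants 8.10, 19.7, 2.13, 10.6 and 7.72 TPM. All injured mutants but mouse 3 lay above every intact mutant. Sfrp2 rose by 2.36 ± 0.72 in mutants (SE; adjusted p = 0.0155), and the wild-type change was 2.01 ± 0.82 (SE; adjusted p = 0.218).

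Sfrp1 (ENSMUSG00000031548, chromosome 8, 23411502 to 23449632, plus strand) encodes a member of the Frizzled-related family. Intact libraries of both genotypes held 0 to 0.466 TPM, which is 0 to 6 implied reads. Injured wild-type mice had 0.146, 3.98, 20.9 and 4.41 TPM and injured mutants had 6.99, 7.94, 0.840, 1.43 and 1.79 TPM. The mutant groups did not overlap, and in the wild type mouse 1 alone stayed within the intact range. Sfrp1 rose by 1.83 ± 0.71 in mutants (SE; adjusted p = 0.0477). The call lies close to the threshold. It was lost with no filter on low values (adjusted p = 0.0721), with eBayes without the trend (adjusted p = 0.0519) and with voom (adjusted p = 0.0677), and the change was 3.99 with a pseudocount of 0.1 and 4.96 with voom. It was also lost when any 1 of 12 of the 16 libraries was left out (adjusted p up to 0.107), remaining only without injured wild-type mouse 1 or 3 or injured mutant 3 or 4. The wild-type change was 2.06 ± 0.81 (SE; adjusted p = 0.207), and without injured wild-type mouse 1 it was 2.78 with an adjusted p of 0.0426.

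Sfrp4 (ENSMUSG00000021319, chromosome 13, 19623104 to 19632994, plus strand), the Frizzled-related protein known from bone, reached 1 TPM in 5 libraries. Wild-type mice had 0, 0 and 0.221 TPM when intact and 0, 0, 17.7 and 1.11 TPM when injured. Mutants had 1.84, 0.179, 0 and 0.176 TPM when intact and 2.16, 2.18, 0.523, 0.508 and 0.357 TPM when injured. A single library, injured wild-type mouse 3, held the highest value of Sfrp4, and that mouse also had the highest Sfrp1 and Sfrp2 of all 16. The changes were 1.23 ± 0.85 in the wild type (SE; adjusted p = 0.423) and 0.50 ± 0.75 in mutants (SE; adjusted p = 0.618).

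Wif1 (ENSMUSG00000020218, chromosome 10, 121033960 to 121100650, plus strand) encodes Wnt inhibitory factor 1, which binds Wnt ligands through its WIF domain. Intact levels were 617, 492 and 563 TPM in the wild type and 505, 533, 600 and 655 TPM in mutants. After injury the wild-type mice had 626, 528, 150 and 386 TPM and the mutants had 179, 135, 175, 272 and 255 TPM. Injured wild-type mice 1 and 2 kept intact levels, and every injured mutant lay below every intact mutant. Wif1 fell by 1.53 ± 0.35 in mutants (SE; adjusted p = 0.00386), the smallest fall of the 5 abundant members. The wild-type change was -0.58 ± 0.40 (SE; adjusted p = 0.426).

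The order of Frzb and Wif1, the 2 most abundant ligand-binding antagonists, was not the same in injured mutants as elsewhere. The ratio of Frzb to Wif1 TPM was 1.29 to 1.91 in the 11 intact or wild-type libraries, so Frzb was the higher in each of them. In injured mutants the ratio was 0.670, 1.87, 0.564, 0.895 and 0.879, so Wif1 was the higher in 4 of 5 mice. The ratio was looked at after the values were seen and was not tested.

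Dkk3 (ENSMUSG00000030772, chromosome 7, 112116017 to 112159057, minus strand) encodes the most divergent Dickkopf protein, which is secreted by cartilage and whose effect on Wnt signalling varies between settings. Intact wild-type mice had 126, 156 and 127 TPM and intact mutants 129, 136, 139 and 106 TPM. Injured wild-type mice had 122, 112, 79.0 and 62.5 TPM and injured mutants 23.1, 28.7, 25.2, 60.4 and 39.3 TPM. The injured groups lay below the intact groups without overlap in both genotypes, and the injured mutants lay below the injured wild type. Dkk3 fell by 1.91 ± 0.27 in mutants (SE; adjusted p = 0.000410), the smallest p of the members and rank 96 among all genes tested. The wild-type change was -0.58 ± 0.31 (SE; adjusted p = 0.310).

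Dkk1 and Dkk2, the Dickkopf proteins that bind the LRP co-receptors, stayed near 0 and did not pass the filter on low values, so neither was tested. Dkk1 (ENSMUSG00000024868, chromosome 19, 30545863 to 30549665, minus strand) held 0 to 7 implied reads per library and averaged 0.559 ± 0.559 TPM in intact and 0.339 ± 0.266 TPM in injured wild-type discs, and 0.561 ± 0.244 TPM in intact and 0.256 ± 0.238 TPM in injured mutant discs (± SD). Dkk2 (ENSMUSG00000028031, chromosome 3, 132085292 to 132180304, plus strand) held 0 to 23 implied reads and averaged 0.185 ± 0.157, 0.507 ± 0.389, 0.189 ± 0.223 and 0.782 ± 0.564 TPM in the same order. With so few reads these means are imprecise, and no comparison between groups was made.

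Sostdc1 (ENSMUSG00000036169, chromosome 12, 36314139 to 36318452, plus strand) encodes sclerostin domain-containing protein 1, which binds LRP co-receptors and also bone morphogenetic proteins (BMPs). Intact wild-type mice had 300, 246 and 441 TPM and intact mutants 223, 247, 95.5 and 210 TPM. Injured wild-type mice had 411, 544, 91.0 and 211 TPM, whereas injured mutants had 8.97, 57.8, 19.9, 73.6 and 26.9 TPM. Injured wild-type mice 1 and 2 thus lay at or above most intact values, and the highest injured mutant lay below the lowest library of every other group. Sostdc1 fell by 2.60 ± 0.64 in mutants (SE; adjusted p = 0.00484). The wild-type change was -0.32 ± 0.73 (SE; adjusted p = 0.831).

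**Figure D1:**
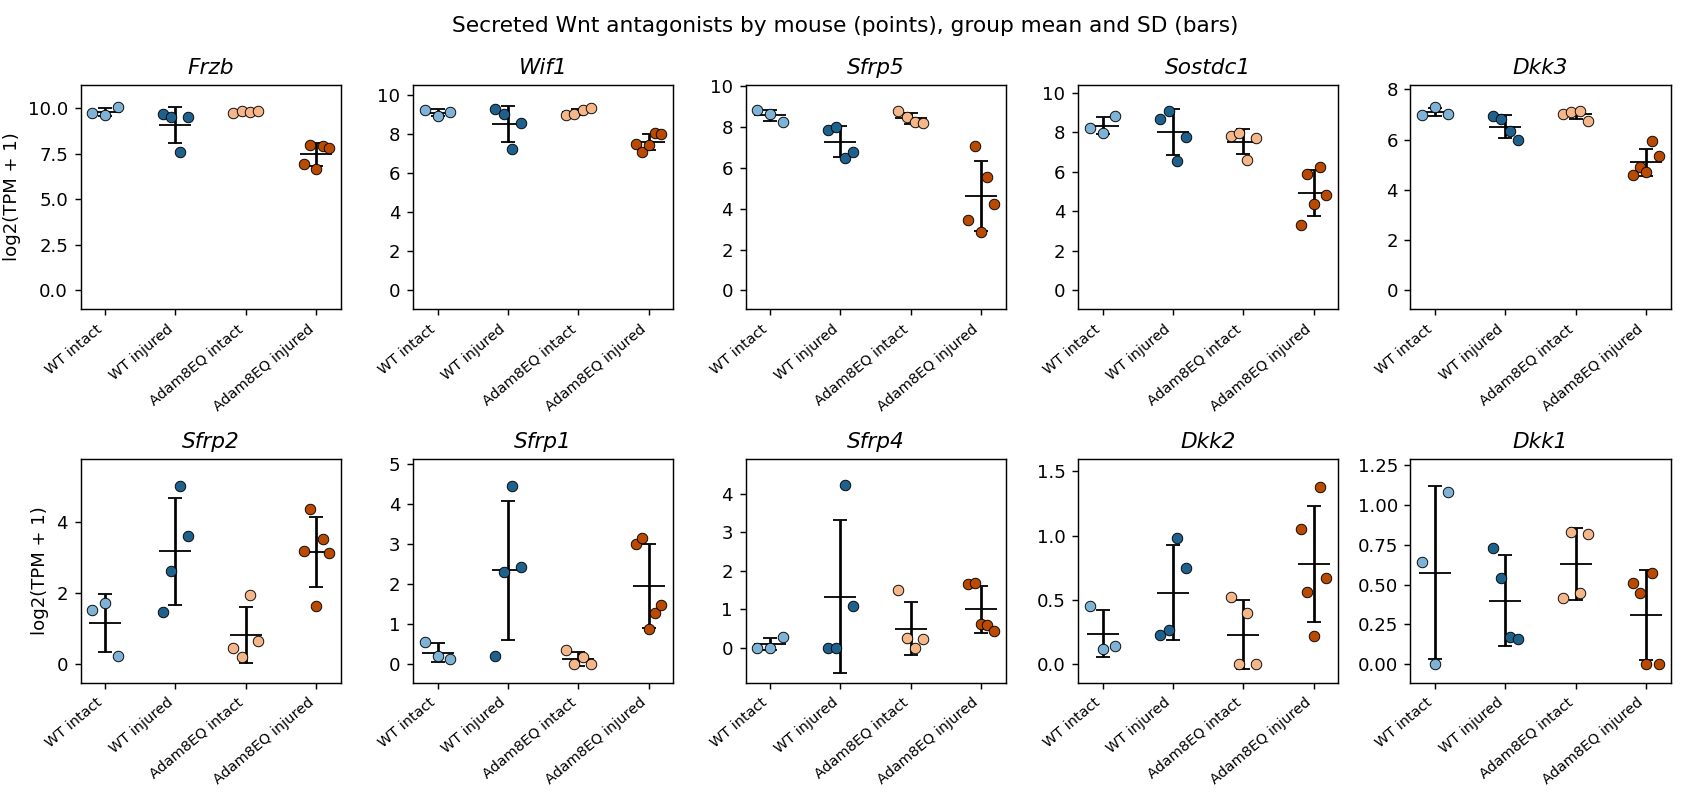
Level of each of the 10 antagonists on the log2(TPM + 1) scale (y axis) in the 4 groups (x axis); points are mice and the black marks give the group mean and SD. In the upper row the injured Adam8EQ mice lie below the intact ones in all 5 abundant genes. In the lower row, with other y scales, the means of Sfrp2 and Sfrp1 are higher in injured than in intact Adam8EQ mice, with overlapping values for Sfrp2.

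Counted together, 7 of the 8 tested members passed the threshold for injury in mutants, 2 higher and 5 lower. Sfrp1, 1 of the 2 higher, held at most 0.466 TPM in any intact library. It passed the filter on low values only through injured libraries, so its rise is not independent of that filter. Dkk1 and Dkk2 did not pass the filter and are not among the 8. Of all genes tested 30.8% passed in that comparison, 13.1% higher and 17.7% lower. The 5 falls and the rise of Sfrp1 came without overlap of the groups, which held for 15.3% of all genes in the lower and 12.0% in the higher direction. The median change was -1.72 over the 8 members and -0.08 over all genes tested.

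For injury in the wild type 0 of the 8 members passed, where 0.116% of all genes tested did (limma). At an unadjusted p under 0.05 there were 2 members, Sfrp1 and Sfrp2, where 17.2% of all genes passed, and limma voom on the implied reads called 0. Sfrp5 and Dkk3 were lower without overlap, as were 6.34% of all genes. The difference between the injury changes of the genotypes was tested directly. It was -2.52 ± 1.08 for Sfrp5 (SE; adjusted p = 0.541), -2.28 ± 0.97 for Sostdc1 (adjusted p = 0.537), -1.63 ± 0.63 for Frzb (adjusted p = 0.516), -1.33 ± 0.41 for Dkk3 (adjusted p = 0.488) and -0.95 ± 0.54 for Wif1 (adjusted p = 0.634). No member passed, nor did any of the 24188 genes (0%). At an unadjusted p under 0.05 there were 4 members, Sfrp5, Sostdc1, Frzb and Dkk3, against 8.18% of all genes, and voom called 0 members. A larger fall in mutants than in wild-type mice was therefore not shown for any member.

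Intact discs of the genotypes were compared to ask whether the members differed before injury. None of the 8 tested members passed with limma, and 0 had an unadjusted p under 0.05 or a call with voom, where 0.0165% of all genes passed and 3.78% had such an unadjusted p. The changes of mutants against wild type were -0.14 for Sfrp5, 0.01 for Frzb, 0.04 for Wif1, -0.10 for Dkk3 and -0.80 ± 0.73 for Sostdc1 (SE), each with an adjusted p of 1. Intact Sostdc1 averaged 329 ± 101 TPM over the 3 wild-type mice and 194 ± 67.4 TPM over the 4 mutants (± SD), with overlapping values.

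In injured discs Sostdc1 and Dkk3 were lower in mutants than in the wild type. Sostdc1 averaged 37.4 ± 27.2 TPM over the 5 injured mutants and 314 ± 202 TPM over the 4 injured wild-type mice (± SD), a change of -3.09 ± 0.64 (SE; adjusted p = 0.0300), the third lowest of all genes tested. Dkk3 averaged 35.3 ± 15.3 TPM and 93.8 ± 27.8 TPM, a change of -1.43 ± 0.27 (SE; adjusted p = 0.0277). These 2 of the 8 tested members passed, both lower and both without overlap, where 0.918% of all genes passed, 0.728% were called lower and 3.86% were lower without overlap. Frzb (-1.62 ± 0.42, SE; adjusted p = 0.0577), Sfrp5 (-2.66 ± 0.72, SE; adjusted p = 0.0627) and Wif1 (-0.91 ± 0.35, SE; adjusted p = 0.142) did not pass, and the changes of Sfrp1, Sfrp2 and Sfrp4 were -0.39, -0.01 and -0.33.

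The calls of Sostdc1 and Dkk3 between injured genotypes changed with single mice. Both were lost without injured wild-type mouse 1 or 2 or injured mutant 1, 3 or 5, and Sostdc1 also without injured wild-type mouse 4. Leaving out injured wild-type mouse 3, the wild-type mouse with the lowest Frzb, Wif1, Sfrp5 and Sostdc1, brought the count to 5 of the 8 members, while calls over all genes went from 222 to 2253 of 24188. In a fit of the 2 injured groups alone both lost their call (adjusted p = 0.216 for each). By median-of-ratios scaling 160 genes passed in this comparison, 76 of them higher, against 222 and 46 without it, and both members still passed. The comparison shares its injured mutants with the injury comparison in mutants, so the 2 sets of values are not independent.

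**Figure D2:**
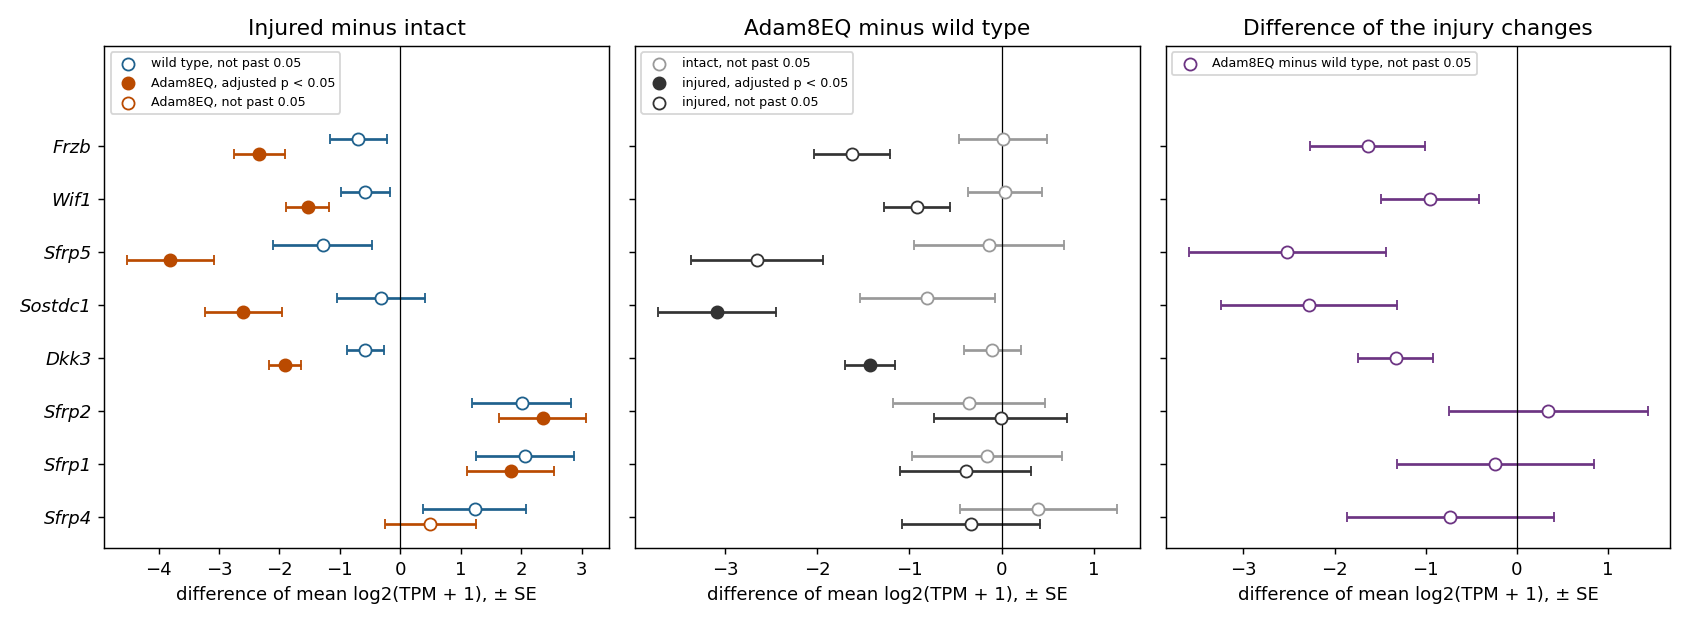
Change of mean log2(TPM + 1) with its SE (x axis) for the 8 tested antagonists (y axis): injured minus intact in each genotype, Adam8EQ minus wild type in each treatment, and the difference of the injury changes. Filled points passed an adjusted p of 0.05, which were 7 for injury in Adam8EQ and 2 between injured genotypes.

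Mutant libraries carry names of 2 kinds, and the injury changes of the abundant members had the same sign in both. Among libraries named A8 (2 injured, 2 intact) the changes were -3.39 for Sfrp5, -2.31 for Frzb, -2.32 for Dkk3, -1.73 for Wif1 and -3.28 for Sostdc1. Among libraries named M (3 injured, 2 intact) they were -4.01, -2.35, -1.61, -1.44 and -2.02. Among the A8 libraries 5 members passed, Sfrp2 higher and Sfrp5, Frzb, Dkk3 and Sostdc1 lower, where 3583 of the 24188 genes passed. Among the M libraries 2 passed, Sfrp5 (adjusted p = 0.0199) and Dkk3 (adjusted p = 0.0403), where 725 genes did. Sfrp2 changed by 3.45 among A8 and by 1.46 among M libraries (adjusted p = 0.0444 and 0.357), and Sfrp1 by 2.90 and 1.12 (adjusted p = 0.0773 and 0.450). Between injured genotypes Sfrp1 stood at 0.73 with the A8 mutants and at -1.14 with the M mutants.

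Summed over the 10 members, antagonist transcripts made up 2292 ± 212 TPM in the 3 intact wild-type mice and 2131 ± 84.5 TPM in the 4 intact mutants (± SD). The 5 injured mutants held 522 ± 170 TPM, from 329 to 710 TPM. The 4 injured wild-type mice held 2218, 2171, 673 and 1525 TPM, so mice 1 and 2 stayed at intact levels and mouse 3 lay within the injured mutant range. Makeup differed too. Sfrp1, Sfrp2, Sfrp4, Dkk1 and Dkk2 together took at most 0.184% of the sum in any intact library and 1.11% to 5.20% in injured mutants. In injured wild-type mice 1 to 4 they took 0.125%, 0.451%, 10.6% and 1.15%. The share in mouse 2 thus lay above every intact library although its sum stayed at intact levels. The order of the means was Frzb, Wif1, Sfrp5, Sostdc1 and Dkk3 in both intact groups. It became Wif1, Frzb, Sfrp5, Sostdc1 and Dkk3 in injured mutants, where the neighbours Frzb and Wif1, and likewise Sfrp5, Sostdc1 and Dkk3, differed by less than their SD.

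**Figure D3:**
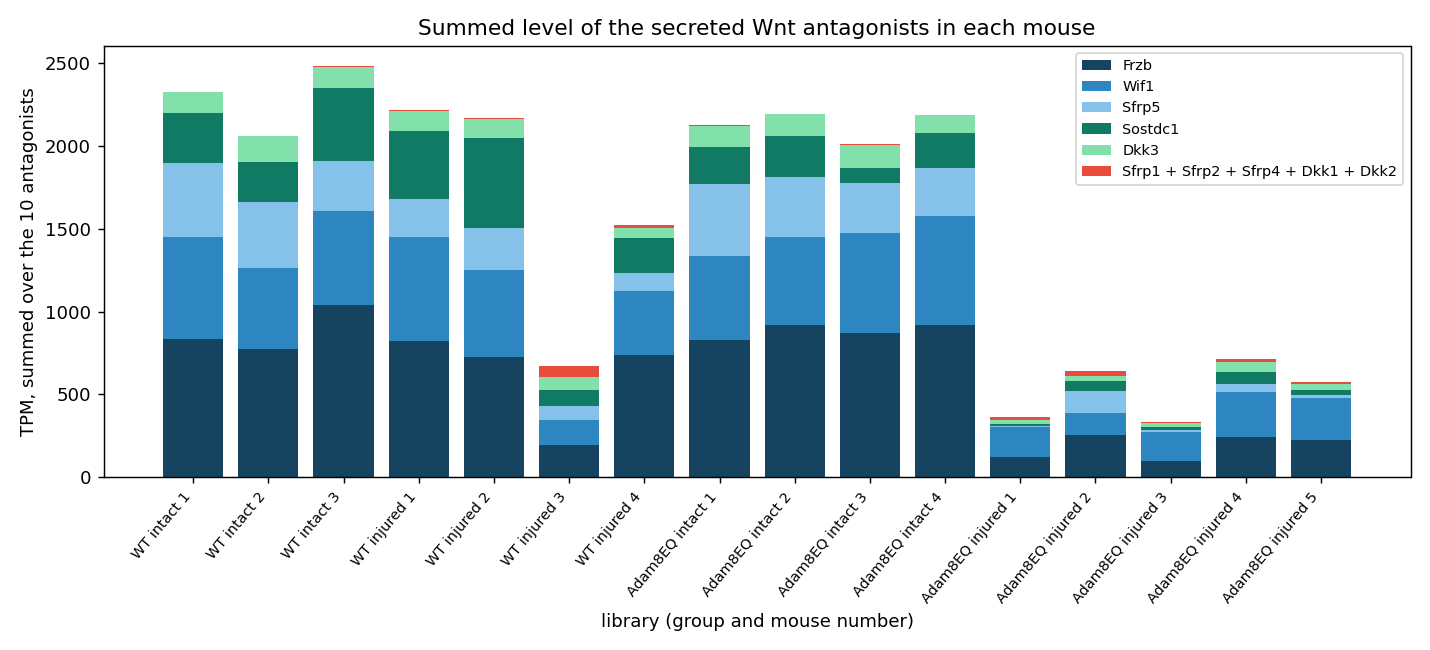
TPM of the antagonists stacked by gene (y axis) in each of the 16 libraries (x axis). The 5 injured Adam8EQ libraries stand at 329 to 710 TPM, all below the intact libraries, and injured wild-type mouse 3 stands among them at 673 TPM.

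The tested members formed 2 sets by level, the 5 abundant ones and Sfrp1, Sfrp2 and Sfrp4, with negative correlations between the sets over all 16 libraries. Over the 16 libraries the Pearson correlation of log2(TPM + 1) between pairs of the 5 abundant members was 0.756 to 0.920, the highest between Frzb and Wif1. Between Sfrp1, Sfrp2 and Sfrp4 it was 0.628 to 0.895, and between a member of one set and a member of the other -0.772 to -0.276. The libraries share the 4 groups, so these values describe group differences as well as mouse to mouse variation. Within the injured mutants the sets did not run apart throughout. Injured mutant 2 had the highest Frzb and Sfrp5 of its group and also the highest Sfrp1, Sfrp2 and Sfrp4, but the lowest Wif1. Genes most like each member by the same measure were Nxph3 (0.982) for Sfrp5, Ctxn3 (0.980) and Lepr (0.978) for Frzb, Npr2 (0.977) and Slc4a3 (0.976) for Wif1, Fam117a (0.966) and Zfp398 (0.958) for Dkk3, Ptn (0.963) and Lypd6 (0.948) for Sostdc1, Ebf3 (0.972) for Sfrp1, and Cx3cr1 (0.969) and Mapk11 (0.964) for Sfrp2.

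Around the antagonists, 12 of the 17 tested Wnt receptors and co-receptors fell in injured mutants, and Wnt ligands changed in both directions. The list holds 19 such genes. None of the 17 tested passed as higher, and the median change was -0.82, where 17.7% of all genes tested were called lower. Fzd1 (1.21, adjusted p = 0.0763) and Ror1 (0.78, adjusted p = 0.0601), picked after their values were seen, had changes above 0 that did not pass. Among them Fzd9 fell by 1.52 ± 0.36 (SE; adjusted p = 0.00405) and Fzd5 fell by 1.36 ± 0.22 (SE; adjusted p = 0.000797), both Frizzled receptors. Of 19 Wnt ligands 12 were tested, of which 3 rose and 2 fell, with a median of -0.06. Wnt7b rose by 1.58 ± 0.36 (SE; adjusted p = 0.00485), its mean going from 0.126 ± 0.0582 to 2.85 ± 1.98 TPM (± SD, 4 and 5 mice). Its means were 0.106 and 0.179 TPM in intact and injured wild-type mice, so it passed the filter on low values only through injured mutants. Wnt11 rose by 1.56 ± 0.46 (SE; adjusted p = 0.0159). The riser not named here averaged at most 0.0476 TPM in either intact group and passed the filter only through injured libraries. Wnt16 fell by 1.56 ± 0.58 (SE; adjusted p = 0.0378) and Wnt5b fell by 0.89 ± 0.25 (SE; adjusted p = 0.0149).

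The counts that follow stand against 17.7% of all genes called lower and 13.1% called higher for injury in mutants. Both genes of Wnt secretion fell in injured mutants, Porcn, the acyltransferase that lipidates Wnts, by 0.58 and Wls, their carrier to the membrane, by 0.32. Of the 6 tested genes of the R-spondin axis 2 fell and 0 rose, the ubiquitin ligases Rnf43 (-1.16) and Znrf3 (-0.64), which remove Frizzled receptors. Of 9 tested feedback targets, genes that Wnt signalling itself switches on, 4 fell and 0 rose, among them Notum (-1.28), a Wnt-inactivating esterase, and Rnf43 again. All 4 are also counted in another of these lists. Axin2, the most used target, averaged 1.48 ± 0.179 TPM in intact and 0.793 ± 0.193 TPM in injured mutants, a change of -0.47 that did not pass (SE 0.16; adjusted p = 0.0865). Nkd2 (1.56, adjusted p = 0.0741) and Apcdd1 (0.59, adjusted p = 0.188), named after their values were seen, had changes above 0 that did not pass. Nkd1 (-0.29) and Tcf7 (-0.25) did not pass either. Of 17 intracellular components 5 fell and 0 rose, with a median of 0.01. Pygo1, a beta-catenin co-factor, changed by -1.37 and Lef1, a transcription factor of the pathway, by -0.91.

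Of 4 tested antagonists outside the 10 members, the membrane protein Tpbg rose by 1.45 and Notum fell. Secreted BMP antagonists showed both directions as the Wnt antagonists did: of 10 tested, 5 fell and 2 rose in injured mutants, with a median of -0.98. Chrdl2 fell by 3.39 ± 0.83 (SE; adjusted p = 0.00475) and Nog, which encodes noggin, fell by 2.83 ± 0.61 (SE; adjusted p = 0.00248), whereas Fstl1 rose by 1.92 ± 0.63 (SE; adjusted p = 0.0204) and Fst, which encodes follistatin, rose by 1.91 ± 0.53 (SE; adjusted p = 0.0103). For injury in the wild type, for genotype in intact discs and for the difference of the injury changes, none of the genes in these lists passed. Between injured genotypes 5 passed, all lower in mutants: the receptors Fzd2 (-1.05), Fzd4 (-1.13) and Fzd6 (-0.69), Pygo1 (-1.05) and the BMP antagonist Chrdl1 (-1.39). They are named because they are few, after their values were seen. These were 3 of 17 tested receptors, 1 of 17 intracellular components and 1 of 10 BMP antagonists. Over all genes tested, 0.918% passed in that comparison and 0.728% were called lower.

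**Figure D4:**
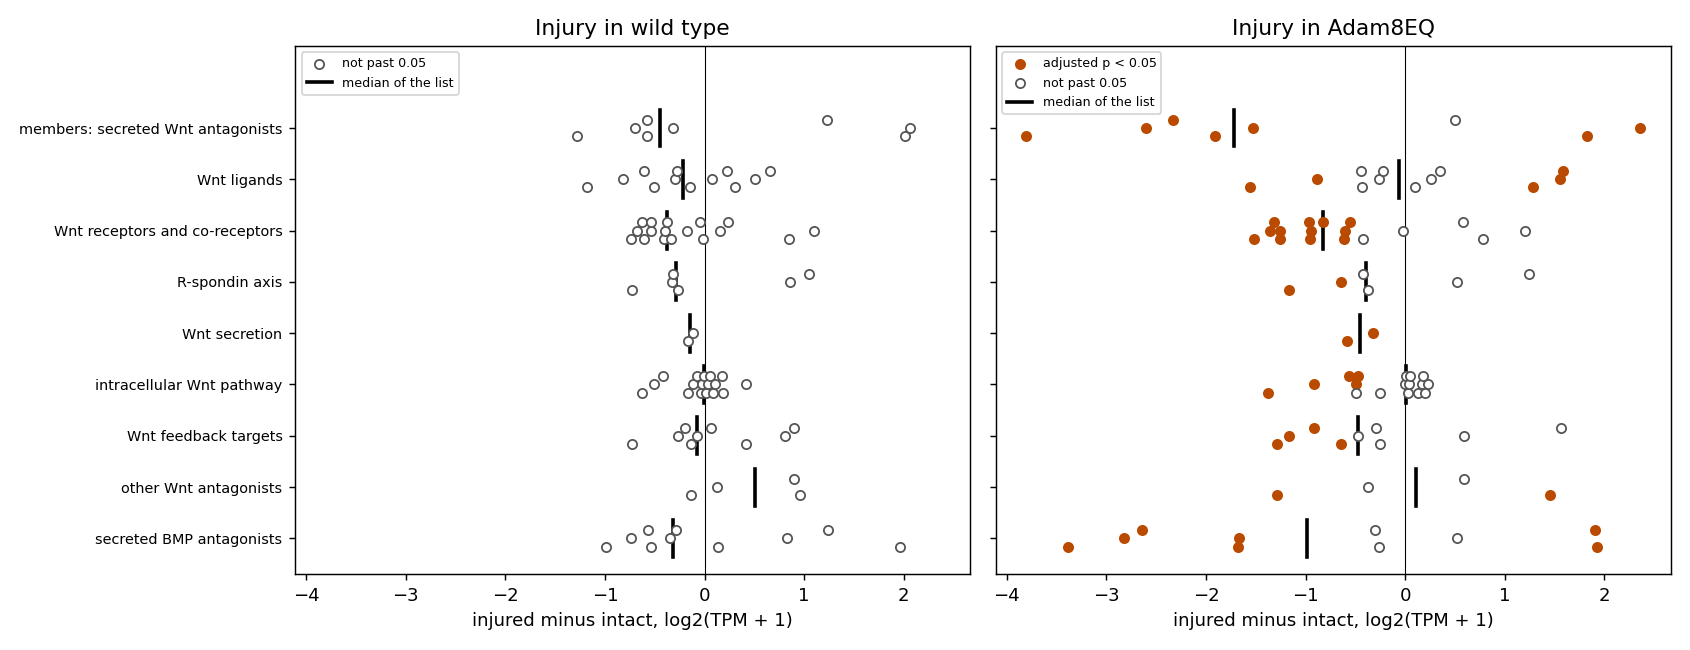
Injured minus intact change of log2(TPM + 1) (x axis) of each tested gene in the 10 antagonists and in the other Wnt and BMP lists (y axis), in wild-type mice (left) and in Adam8EQ mice (right). Filled points passed an adjusted p of 0.05 and black lines are list medians: in Adam8EQ discs 12 of 17 receptors are filled on the lower side, and no point is filled in the wild type.

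Markers of several cell types changed in the injured mutants as well. Over all genes 13.1% were called higher and 17.7% lower in that comparison. In bulk tissue, fewer cells of a type and less RNA per cell cannot be told apart. Of 7 tested leukocyte markers 6 rose and 0 fell, and their sum was 119 to 160 TPM in intact mutants and 606 to 7276 TPM in injured ones. Among the risers, Ptprc, Itgam, S100a8 and S100a9 averaged at most 0.876 TPM in either intact group. Of 6 fibroblast markers 4 rose and 0 fell, with sums of 2736 to 4202 TPM and 6563 to 10737 TPM. Of 11 tested cartilage markers 4 fell (Chad, Cnmd, Cytl1 and Ucma) and 1 rose (Hapln1, by 1.19), with sums of 30359 to 33991 TPM and 6084 to 17819 TPM. Chad, the most abundant of them in intact mutants, averaged 17881 TPM there and 3055 TPM in injured mutants. Acan (-0.29), Col2a1 (-0.04), Col9a1, Col11a1, Sox9 (0.58) and Matn3 did not pass. Of 6 outer annulus and tendon markers 5 fell and 1 rose (6163 to 6709 TPM and 1037 to 2931 TPM). Of 6 tested notochordal markers 3 fell and 0 rose (5237 to 12081 TPM and 564 to 5460 TPM). Of 6 tested bone and hypertrophic cartilage markers 2 fell, of 4 epidermal ones 2 fell, and of 7 skeletal muscle and 5 endothelial markers 0 passed. Matn1, Shh and Noto lay under 1 TPM in all libraries.

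The same markers differed among the injured wild-type mice. Mouse 3, with the lowest antagonist sum and the highest Sfrp1, Sfrp2 and Sfrp4, had a leukocyte sum of 3226 TPM and a fibroblast sum of 13055 TPM. Mouse 1, whose antagonist sum lay within the intact range and which had 0.146 TPM of Sfrp1, had a leukocyte sum of 192 TPM and a fibroblast sum of 3277 TPM. Both lay above the intact wild-type ranges, which were 124 to 152 TPM for leukocytes and 1973 to 2566 TPM for fibroblasts. Mouse 2 had a leukocyte sum of 314 TPM and a fibroblast sum of 4364 TPM, with an antagonist sum of 2171 TPM. Mouse 4 had a leukocyte sum of 2145 TPM and a fibroblast sum of 6307 TPM, with an antagonist sum of 1525 TPM. The part of cell makeup in the changes of the antagonists was not tested.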

How the data were processed

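Total RNA of the pooled discs was depleted of ribosomal RNA and made into NEBNext Ultra II libraries, per the labels' protocols, whereas the labels' molecule field reads polyA RNA. TPM values for all mice were deposited by the authors in 1 table, with 1 column per mouse. The submitters' processing notes name GRCm38 and bcl2fastq 2.20. The aligner, the counter, the annotation and the use of strand are not given in the sources used here.

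Positions came from GENCODE M21, which holds 48970 of the 49315 identifiers. Reads were implied from TPM and exon length, and of the low values in each library 94.1% to 95.0% lay within 0.05 of a whole number. limma 3.58.1 (R 4.3.3; lmFit, then eBayes with trend) was fitted to log2(TPM + 1) of all 16 libraries, with 1 mean per group, after checks on simulated data. A pseudocount of 0.1, other filters and scalings, sample weights, a replicate block, library names, single groups and leaving out each mouse were tried, and voom on implied reads was added after seeing the data.

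The members and lists were chosen with earlier results of these data known. All members are named. At most the 2 largest rises and falls among genes called for injury in mutants are named per pathway list, and for each called member the 2 genes with the highest correlation over libraries, of which 1 is not reported here for Sfrp5 and 1 for Sfrp1. Replicates are separate mice, and mice with the same number in different groups are not pairs.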

Additional observations from a re-analysis of the deposited data

Results flagged for a closer look

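Among 30 groups of 4 or 5 libraries, 2 held a library set apart from the others on the log2(TPM + 1) scale, where chance would give about 1 in 20. Injured wild-type mouse 3 had 194 TPM of Frzb, with the other 3 mice of its group at 722 to 824 TPM, and its gap to the nearest of them was 0.909 of the range of the group. Intact mutant 1 had 1.84 TPM of Sfrp4, with the other intact mutants at 0.179 TPM or below, and its gap was 0.842 of the range. Both gaps exceed Dixon's limit for a group of their size.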

How the results depend on the processing

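For injury in wild-type mice 0 members passed under the alternatives that kept all mice, and 0 to 1 when 1 mouse was left out. For injury in mutants, where 7 passed, 2 passed with only the mutant libraries named M, 5 with only those named A8, 6 with no filter, with eBayes without the trend and with voom (each without Sfrp1), and 6 to 7 when 1 mouse was left out. Between injured genotypes, where 2 passed, 5 passed with limma's sample weights, 4 with voom, 1 with only the M mutants and 0 with only the A8 mutants or with a fit of the injured groups alone, and 0 to 5 when 1 mouse was left out. Between intact genotypes and for the difference of the injury changes 0 passed under all alternatives run. Over all genes, the number called ranged over these alternatives (mice not left out) from 4 to 77 for injury in the wild type (28 in the reported fit), from 725 to 8559 in mutants (7438) and from 2 to 1070 between injured genotypes (222). Quantile normalization moved the median of all genes between injured genotypes by 0.12, and 27 of its 35 calls for injury in the wild type were higher, against 26 of 28. The causes were not tested.

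The replicate numbers do not pair the mice: deviations from the group means of same-numbered mice correlated at -0.217 to 0.0779. Under the block 6 members passed for injury in mutants (Sfrp1 lost, adjusted p = 0.0910) and 0 between injured genotypes (adjusted p = 0.0894 for Dkk3 and 0.0884 for Sostdc1).

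Signs turned for small changes. These were, for Sfrp2 between injured genotypes, 0.0324 with a pseudocount of 0.1, 0.0815 by median-of-ratios, 0.17 by quantile normalization, 0.0949 with sample weights, 0.0044 with the block, 0.0025 with library names as covariate and 0.60 with only A8 mutants. Sfrp4 there stood at 0.52 with a pseudocount of 0.1, 0.34 with A8 mutants and 1.04 with voom, and Sfrp1 at 0.73 with A8 mutants. Between intact genotypes Sfrp2 stood at 0.14 with M mutants, and with A8 mutants Sfrp5 at 0.0699, Frzb at -0.00595 and Wif1 at -0.0969, the block giving -0.10 for Frzb and -0.0508 for Wif1. The difference of injury changes was 0.59 for Sfrp1 with a pseudocount of 0.1, 0.84 with A8 mutants and 1.31 with voom, and -0.55 for Sfrp2 with M mutants. Injury in the wild type gave 0.0047 for Sostdc1 with sample weights.

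Leaving out 1 mouse turned the sign of 10 uncalled changes: Sostdc1 for injury in the wild type (-0.68 to 0.18), Frzb (-0.0770 to 0.14), Dkk3 (-0.15 to 0.000345) and Wif1 (-0.0473 to 0.12) between intact genotypes, Sfrp1 (-1.11 to 0.31), Sfrp2 (-0.58 to 0.61) and Sfrp4 (-0.77 to 0.63) between injured genotypes, and Sfrp1 (-0.95 to 0.47), Sfrp2 (-0.22 to 0.96) and Sfrp4 (-1.17 to 0.23) for the difference of the injury changes. The 5 falls in injured mutants kept their sign and their call in each of the 16 fits without 1 mouse. Depth limits Sfrp1, Sfrp2, Sfrp4, Dkk1 and Dkk2, which held few implied reads in intact discs (Sfrp2 1 to 21).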
